A study of Mus musculus with 15 samples.

Results

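STAT proteins (signal transducers and activators of transcription) carry cytokine signals from the cell surface to the nucleus. A cytokine receptor activates its bound Janus kinases, the kinases phosphorylate 1 tyrosine near the C-terminal end of a STAT protein, and the phosphorylated proteins pair up and bind DNA. In CD8+ T cells, STAT5 proteins act downstream of interleukins 2, 7 and 15, STAT4 downstream of interleukin 12, STAT3 downstream of interleukins 6, 10, 21 and 27, STAT6 downstream of interleukin 4, and STAT2 in the complex that answers type I interferon. The 6 STAT genes described here, Stat2, Stat3, Stat4, Stat5a, Stat5b and Stat6, were found by symbol in the GENCODE M21 annotation and are 6 of 55536 genes with an estimated count. Together they have 41 of 141862 transcripts.

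The cells were CD8+ T cells of OT-I mice, in which every T cell carries a transgenic receptor for the ovalbumin peptide SIINFEKL. They came from Rag1- or Rag2-deficient donors and were transferred into C57BL/6J recipients. The study's reporting summary gives an age range of young adult mice, while its methods give a range that extends to older mice. Recipients received the peptide with control rat IgG (Ag) or with agonist antibodies against the costimulatory receptors OX40 (CD134) and 41BB (CD137) (Ag+Costim). Transferred cells were sorted from spleen and lymph nodes at day 4 by the labels, although the study's methods name a shorter time, and poly(A) RNA of 5 libraries per group was sequenced. The Naive group, OT-I cells that were not transferred, was not analysed here.

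The sorted cells carried the defining CD8 T cell genes in every library, with Cd8b1 between 1070 and 1820 CPM (counts per 1e6 of the library's total) in Ag and between 1060 and 1320 in Ag+Costim. The Ag libraries were the more heterogeneous. The summed level of 15 cell cycle genes was 1380 and 1290 CPM in Ag replicates 1 and 4, between 6060 and 7770 in the other 3 Ag libraries, and between 7430 and 9160 in Ag+Costim. Ag replicate 3 had the lowest total (59.6 M estimated counts, M standing for 1e6, against 259.6 to 639.1 M in the other libraries) and the most erythroid RNA, 1310 CPM over 7 genes against 12.1 to 175 in the other Ag libraries and 3.68 to 36.8 in Ag+Costim. B cell genes summed to 191, 424 and 240 CPM in Ag replicates 1, 3 and 4, to 31.4 and 33.8 CPM in Ag replicates 2 and 5, and to between 28.0 and 48.4 in Ag+Costim. Myeloid genes summed to 157 to 288 CPM in Ag and 172 to 263 in Ag+Costim, and the 4 CD4 T cell genes to 3.39 to 32.8 and 2.92 to 7.48. No gene of these lists was at 0 in all libraries, and the part of these cells' RNA in the results below was not tested.

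The 6 genes lie in 3 places of the mouse genome (mm10). Stat2 (ENSMUSG00000040033.16, chr10:128270559-128292849, plus strand) and Stat6 (ENSMUSG00000002147.18, chr10:127642986-127660957, plus strand) lie 609.6 kb apart. Stat4 (ENSMUSG00000062939.11, chr1:51987148-52107189, plus strand) stands alone. Stat5b (ENSMUSG00000020919.11, chr11:100780731-100850724, minus strand), Stat5a (ENSMUSG00000004043.14, chr11:100859351-100885169, plus strand) and Stat3 (ENSMUSG00000004040.16, chr11:100885098-100939540, minus strand) are neighbours, with 8626 bases between Stat5b and Stat5a. The 3' ends of Stat5a and Stat3 run into each other and share 72 bases. The library kit did not mark strand, so reads in those bases, and in the 40 bases that Stat6 shares with Nab2, cannot be told apart by gene. Stat4 also overlaps the annotated loci Gm28177, on the same strand over 29929 bases up to the 3' end of Stat4, and Gm3940, on the other strand over 432 bases. How reads from bases that these loci share with Stat4 were assigned is uncertain. The coding sequences of Stat5a-201 and Stat5b-201 are identical at 90.7% of 2343 aligned bases, so how reads from stretches that both share were assigned is uncertain.

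Isoforms of this family differ around the activating tyrosine, and the short sequences that set them apart are shown for that reason. All are transcript sequences of GENCODE M21, written 5' to 3' with T. In Stat5a-201, which codes for 793 residues, an exon of 52 bases (chr11:100881738-100881789) holds codons 688 to 705, with 1 tyrosine codon among them, codon 694. The exon of the same length in Stat5b-201 (chr11:100784253-100784304) holds tyrosine codon 699. In Stat3-203 the tyrosine codon is 705. Capitals mark these codons.
Stat5a tyrosine codon: gcagttgacggaTACgtgaagccacag
Stat5b tyrosine codon: gcagctgacggaTACgtgaagccacag
Stat3 tyrosine codon: agtgctgccccgTACctgaagaccaag

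Stat5a-203 skips this exon, so that it shares 687 codons with Stat5a-201 and then reads 110 codons of its own. Capitals mark the first 15 bases after the junction, with the exon and without it.
Stat5a with exon: acactcctgtacttgCGAAAGCAGTTGACG
Stat5a without exon: acactcctgtacttgGTTCGTCAATGCATC

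Stat3 has a full-length form, alpha (Stat3-203, 770 codons), and a shorter form, beta (Stat3-202, 722 codons). STAT3 beta keeps the activating tyrosine and lacks the C-terminal transactivation domain. The beta acceptor leaves out 50 bases (chr11:100889541-100889590), after which 7 codons replace the last 55 of alpha and a stop follows. Capitals mark the first 15 bases after the acceptor in each form, and the stop codon in the last line.
Stat3 alpha: catctgtgtgacaccAACGACCTGCAGCAA
Stat3 beta: catctgtgtgacaccATTCATTGATGCAGT
Stat3 beta stop: ccattcattgatgcagtttggaaaTAA

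A pair of donor sites 3 bases apart gives Stat3 with or without serine codon 701, 4 codons before the tyrosine (chr11:100893074-100893076). Capitals mark the 3 bases, which Stat3-201 lacks.
Stat3 long donor: aagccgacccagGTAgtgctgccccgtacc
Stat3 short donor: aagccgacccaggtgctgccccgtacc

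Stat4 had the highest level per transcript length of the 6 genes, and Stat2 the lowest, in both groups. Estimated counts were divided by transcript length and scaled to the same total in each library (TPM), the scale on which genes can be compared. In Ag, Stat4 stood at 182 ± 20.9 TPM (SD, n = 5), Stat6 at 93.7 ± 28.8, Stat3 at 92.4 ± 32.5, Stat5b at 49.3 ± 14.2, Stat5a at 30.4 ± 5.66 and Stat2 at 20.1 ± 12. In Ag+Costim the order was the same, with Stat4 at 200 ± 12.4 TPM, Stat6 at 103 ± 10.6, Stat3 at 92.1 ± 9.01, Stat5b at 59.4 ± 4.70, Stat5a at 41.2 ± 1.80 and Stat2 at 13.8 ± 2.74. Stat6 and Stat3 could not be ordered in Ag, where Stat6 was the higher in 3 of 5 libraries, and in Ag+Costim their difference of 11.1 TPM was close to the SD of 10.6, although Stat6 was higher in 5 of 5. Stat5a was above Stat2 in 4 of 5 Ag libraries and in 5 of 5 Ag+Costim libraries. Each of the other neighbours kept its order in 5 of 5 libraries of both groups. The ratio of the Stat5 genes was stable, Stat5a taking 31.6 ± 3.14% of their summed counts in Ag and 33.4 ± 1.02% in Ag+Costim.

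The comparison of Ag+Costim with Ag asks whether costimulation changed the RNA of these genes beyond antigen alone. None of the 6 genes was called by edgeR's quasi-likelihood test after Benjamini-Hochberg (BH) adjustment over the 24262 genes tested, in which 0 genes (0%) had an adjusted p under 0.05. At an unadjusted p under 0.05, Stat5a, Stat5b and Stat6 were higher in Ag+Costim, 3 of 6 members, against 7.89% of all genes higher and 10.7% lower. The log2 fold change was positive in 5 of 6 members with a median of 0.33, beside a median of 0.24 over the 8626 genes at a mean of 10 CPM or more and of -0.32 over all genes tested. In bulk RNA, fewer cells of a type and less RNA per cell cannot be told apart. Values below are CPM scaled with TMM factors, and each is given by library before its test.

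**Figure D1:**
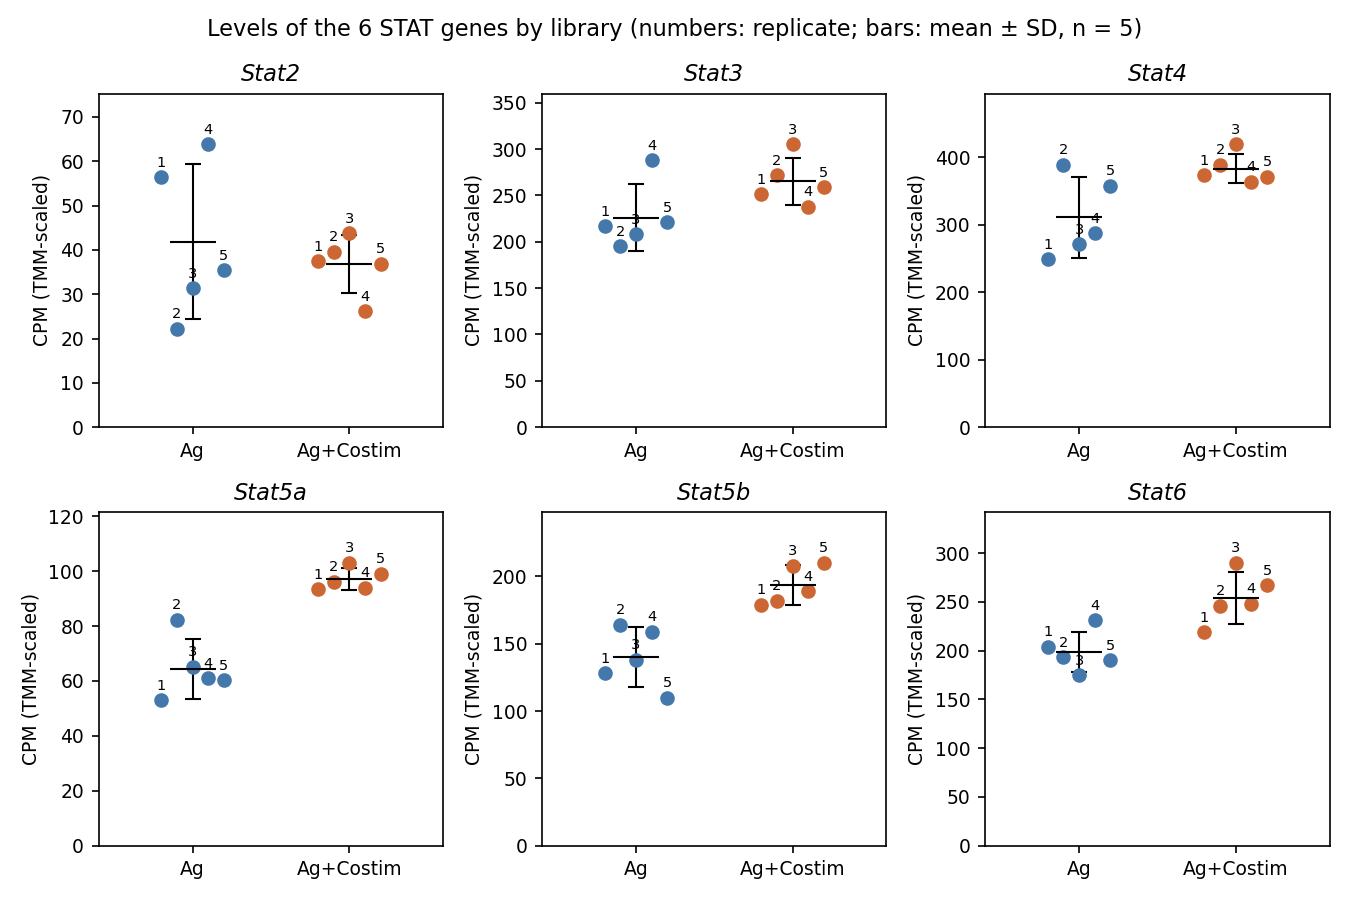
Levels of the 6 STAT genes in CPM scaled with TMM factors (vertical axis, from 0) by group, 1 point per library with its replicate number, and bars for mean ± SD (n = 5). The Ag+Costim points of Stat5a, between 93.4 and 103 CPM, lie above all Ag points, the highest of which is 82.3. The Ag points of Stat2 reach from below to above its Ag+Costim points.

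Stat5a, the STAT5 gene with the lower level, had the clearest difference. It was at 52.9, 82.3, 65.2, 60.9 and 60.3 CPM in Ag replicates 1 to 5 and at 93.4, 96.2, 103, 93.9 and 99.0 CPM in Ag+Costim replicates 1 to 5. The groups did not overlap, and the Ag+Costim libraries lay within 1.10 times of each other. Means were 64.3 ± 11 and 97.0 ± 3.83 CPM (SD, n = 5), a log2 fold change of 0.59 (SE 0.14). Its adjusted p in edgeR was 0.153.

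Stat5b, its close paralogue, was at 128, 164, 138, 159 and 110 CPM in Ag and at 179, 182, 208, 189 and 210 CPM in Ag+Costim. Again no Ag library reached the lowest Ag+Costim library. The log2 fold change was 0.47 (SE 0.15), with an adjusted p of 0.219 in edgeR. Groups without overlap, higher in Ag+Costim, were found for 4.48% of all genes tested, and lower for 1.13%, against 2 and 0 of the 6 members. Stat5a kept this separation with DESeq2 size factors, total counts and upper quartile scaling, but Stat5b lost it under all 3.

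Stat6 was at 204, 193, 175, 231 and 190 CPM in Ag and at 219, 246, 290, 248 and 267 CPM in Ag+Costim. Ag replicate 4 was above the lowest Ag+Costim library. The log2 fold change was 0.35 (SE 0.14), with an adjusted p of 0.256 in edgeR.

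Stat4, the mediator of the interleukin 12 response that drives Ifng, was at 249, 389, 271, 287 and 358 CPM in Ag and at 373, 389, 419, 364 and 371 CPM in Ag+Costim. Ag replicate 2 lay within the Ag+Costim range and the other 4 below it. The log2 fold change was 0.30 (SE 0.16), adjusted p = 0.294 in edgeR.

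Stat3 was at 217, 195, 208, 288 and 221 CPM in Ag and at 251, 272, 305, 238 and 259 CPM in Ag+Costim. Ag replicate 4 stood among the Ag+Costim libraries and the others below them. The log2 fold change was 0.23 (SE 0.15), adjusted p = 0.352 in edgeR, and its sign was negative with total counts (-0.07) and upper quartile scaling (-0.02).

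Stat2 had the widest spread. It was at 56.4, 22.2, 31.4, 63.8 and 35.4 CPM in Ag and at 37.5, 39.6, 43.8, 26.1 and 36.9 CPM in Ag+Costim, so the Ag values lay on both sides of the other group. Its log2 fold change was -0.19 (SE 0.28), adjusted p = 0.676 in edgeR. The 2 high libraries, Ag replicates 1 and 4, are those with the low cell cycle sum given above. Without them the log2 fold change was 0.32 with an adjusted p of 0.435, while Stat5a stood at 0.50 with an adjusted p of 0.153 and Stat5b at 0.51 with 0.212.

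The spread within groups differed as well. The coefficient of variation of the members ran from 10.6% (Stat6) to 42.0% (Stat2) in Ag and from 3.95% (Stat5a) to 17.8% (Stat2) in Ag+Costim. The median gene at 10 CPM or more had 32.2% in Ag and 8.54% in Ag+Costim, so 5 of 6 members varied less than the median gene in Ag. In Ag+Costim 3 of 6 did, Stat4 (5.79%), Stat5a and Stat5b (7.51%), while Stat2, Stat3 (9.57%) and Stat6 (10.4%) varied more.

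Fold changes depended on how libraries were scaled, because the whole distribution shifted. TMM put the median log2 fold change of genes at 10 CPM or more at 0.24, DESeq2 size factors put it at 0.12, upper quartile scaling at 0.02 and total counts at 0.00. Relative to that median, Stat5a was higher by 0.35, 0.34, 0.34 and 0.33 under these 4 scalings, in that order. Stat5b was higher than the median by 0.17 to 0.23, Stat6 by 0.05 to 0.11 and Stat4 by 0.06 under each. Stat3 differed from it by -0.08 to -0.01 and Stat2 by -0.55 to -0.42. Without Ag replicate 5 the median was 0.36, and relative to it Stat5a was at 0.23, Stat5b at 0.06 and Stat6 at 0.00. Within a library, where no scaling enters, Stat5a made up 5.83, 7.87, 7.34, 5.59 and 6.19% of the summed counts of the 6 genes in Ag and 8.10, 7.86, 7.50, 8.10 and 7.96% in Ag+Costim. These shares overlapped in Ag replicate 2 alone.

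Other tests called some of the genes. DESeq2 called Stat5a (log2 fold change 0.47, SE 0.10, adjusted p = 0.000279) and no other member, where it called 22.3% of all genes, 2.58% as higher and 19.8% as lower. limma voom with library weights called 4 members, Stat4 (0.48, adjusted p = 0.000988), Stat5a (0.72, 7.12e-05) and Stat5b (0.42, 0.00767) as higher and Stat2 (-0.58, 0.0236) as lower, where it called 50.8% of all genes, 25.4% as higher and 25.5% as lower. In that fit the median over genes from 10 CPM upwards was 0.44 on the log2 scale. Relative to it Stat5a was at 0.28, Stat4 at 0.04, Stat5b at -0.02, Stat6 at -0.21, Stat3 at -0.35 and Stat2 at -1.02. That fit gave Ag replicates 2 and 5 the weights 0.0985 and 0.0654, against 1.32 and 1.86 for Ag replicates 1 and 4.

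**Figure D2:**
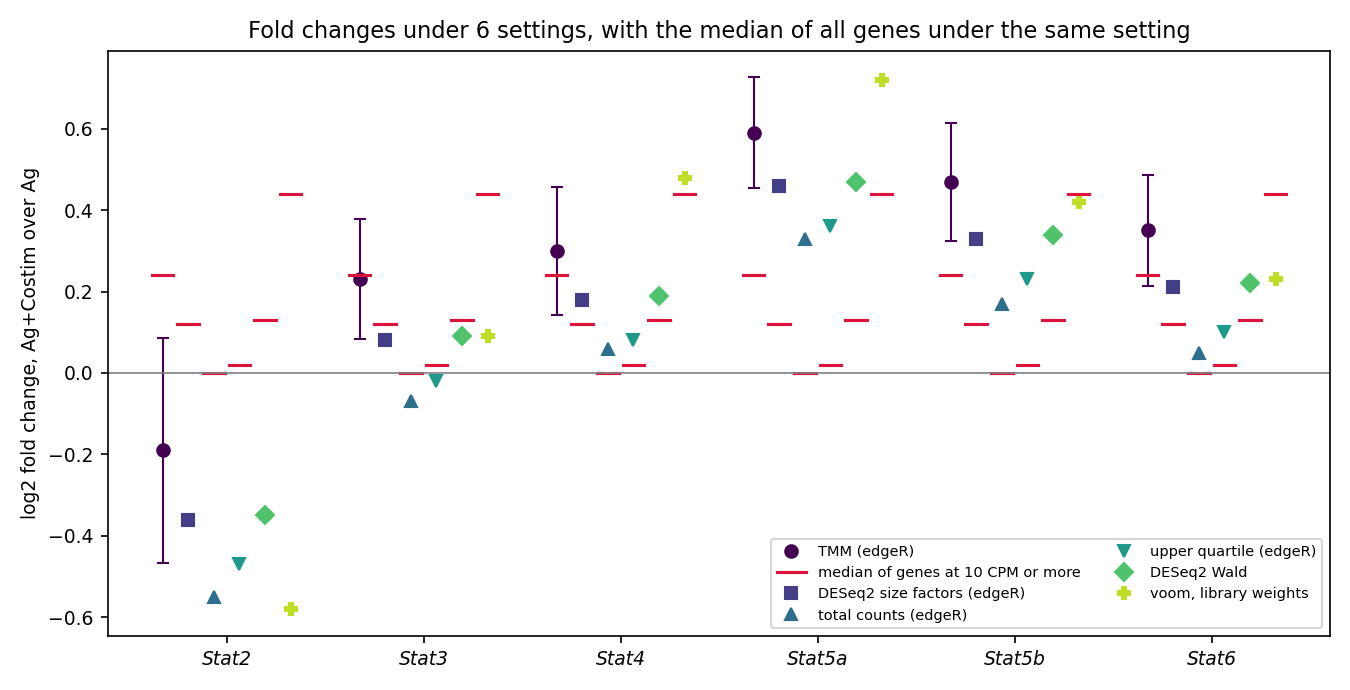
Log2 fold change of each STAT gene, Ag+Costim over Ag (vertical axis), under 4 scalings in edgeR, in DESeq2 and in limma voom with library weights, with red bars for the median of genes at 10 CPM or more under the same setting and an error bar (SE) on the TMM value. Stat5a lies above the median in all 6 settings and Stat2 below it.

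Genes around the STAT proteins were read from lists of Janus kinases, receptors, negative regulators and targets. None passed the BH threshold in edgeR. The counts at an unadjusted p under 0.05 stand beside 7.89% of all genes higher and 10.7% lower, and those of genes whose groups do not overlap beside 4.48% higher and 1.13% lower. All 4 Janus kinases, which phosphorylate STAT proteins, had positive log2 fold changes with a median of 0.22, beside 0.24 for genes at 10 CPM or more, and 0 of 4 had an unadjusted p under 0.05. Jak1 was the most abundant of them by count, at 909 ± 77.2 CPM in Ag and 1020 ± 105 in Ag+Costim (log2 fold change 0.16, adjusted p = 0.483 in edgeR). Jak3, which pairs with the common gamma chain, had a log2 fold change of 0.32 (adjusted p = 0.298), Tyk2 of 0.28 (adjusted p = 0.405) and Jak2 of 0.06 (adjusted p = 0.867).

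Of the 19 receptor genes, 1 was higher and 2 were lower at an unadjusted p under 0.05, with a median log2 fold change of 0.00, and 2 higher and 1 lower had groups without overlap. Il2rb, the beta chain of the interleukin 2 and 15 receptors upstream of STAT5, was at 907 ± 196 CPM in Ag and 1330 ± 81.3 in Ag+Costim, with no overlap between groups (log2 fold change 0.55, SE 0.18, adjusted p = 0.227 in edgeR). Il12rb2, the chain that engages STAT4, was at 25.0 ± 21.9 and 59 ± 7.58 CPM, also without overlap, with an adjusted p of 0.393. Il6ra, the interleukin 6 receptor, was at 34.9 ± 29.6 and 15.5 ± 3.02 CPM (log2 fold change -1.17, adjusted p = 0.268). Ifngr2, a chain of the interferon gamma receptor, was at 5.86 ± 2.51 and 1.61 ± 0.453 CPM without overlap (log2 fold change -1.86, adjusted p = 0.134 in edgeR).

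The 19 negative regulators include SOCS and PIAS proteins, which restrain receptors and DNA-bound STATs. In them 2 genes were higher and 1 was lower at an unadjusted p under 0.05, the median log2 fold change was 0.23, and no gene had groups without overlap. Pias2 was at 25.9 ± 4.08 and 33.1 ± 2.17 CPM (0.35), Pias3 at 17.1 ± 2.63 and 21.2 ± 1.39 (0.31) and Pias4 at 46.0 ± 7.27 and 55.1 ± 4.22 (0.26). Socs5 was at 5.20 ± 3.39 and 2.32 ± 0.666 CPM (-1.17). Values in parentheses are log2 fold changes, and the adjusted p of these 4 genes lay between 0.256 and 0.295 in edgeR.

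Of the 32 target genes, 3 were higher and 2 were lower at an unadjusted p under 0.05, the median log2 fold change was -0.09, and 3 genes, all higher, had groups without overlap. Myc, a growth regulator and STAT5 and STAT3 target, was at 61.1 ± 14.3 CPM in Ag and 101 ± 4.78 in Ag+Costim, and its groups did not overlap (0.72, SE 0.16, adjusted p = 0.149 in edgeR). Il18rap, a receptor chain for interleukin 18 and a STAT4 target, was at 80.6 ± 27.7 and 137 ± 6.63 CPM (0.77, adjusted p = 0.209), and Irf4, a transcription factor of effector cells, at 17.1 ± 5.21 and 31.0 ± 5.23 CPM (0.86, adjusted p = 0.201), both without overlap. Maf was at 5.86 ± 5.29 and 1.25 ± 0.530 CPM (-2.23, adjusted p = 0.257). Il10, the other gene of these 5, was chosen after its values were seen and was at 0.340 ± 0.339 and 0.0349 ± 0.0306 CPM (adjusted p = 0.259).

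**Figure D3:**
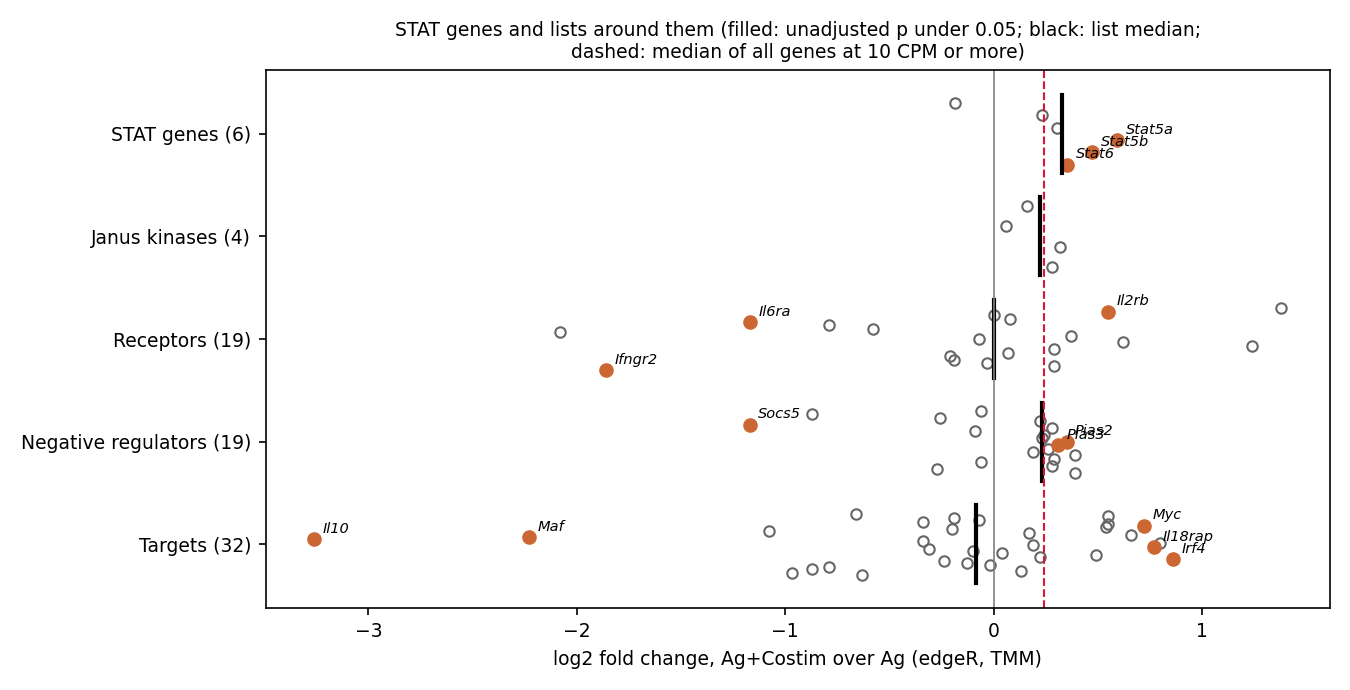
Log2 fold change, Ag+Costim over Ag (horizontal axis), of the 6 STAT genes and of the members of 4 lists, 1 circle per gene, filled where the unadjusted edgeR p is under 0.05, with a black bar at each list's median. The medians are 0.33 for the STAT genes, 0.22 for Janus kinases, 0.00 for receptors, 0.23 for negative regulators and -0.09 for targets, and the dashed line at 0.24 is the median of genes at 10 CPM or more.

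The genes whose log2 CPM tracked each member most closely over the 10 libraries were picked out of 8625 genes at a mean of 10 CPM or more, so high values are in part a result of that choice. All points share the same libraries and scaling. For Stat5a they were Rif1 (Pearson's r = 0.992, and 0.962 with group means removed), Paip2b (0.981) and Pcnt (0.974). For Stat5b they were Adnp2 (0.972), Arhgef6 (0.964) and Kctd10 (0.956). For Stat4 they were Nudt3 (0.985), Ubald2 (0.977) and Gm12966 (0.977). For Stat3 they included Mvp (0.940) and Unc119b (0.921). For Stat6 they were Ccdc97 (0.954), Inpp5d (0.952), a lipid phosphatase of blood cells, and Hnrnpul2 (0.950). For Stat2 they were Cers4 (0.969), Nod1 (0.968), an intracellular sensor of bacterial cell wall fragments, and Rfx5 (0.952). No STAT gene was among the 3 closest genes of another.

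Isoforms were read in 2 ways, from estimated transcript counts per library and from percent spliced in (PSI), of which the authors deposited 1 value per group. By counts, 8 of the 41 transcripts held a mean share of at least 5% of their gene in a group, and 2 were at 0 in every library, Stat3-207 and Stat5a-204. Stat2-201, Stat4-201, Stat5b-201 and Stat6-201 each held a mean of 94.9% or more of their gene's counts in both groups. By coverage (counts divided by transcript length) Stat2-201 held less, 83.9, 81.8, 79.4, 86.9 and 93.7% in Ag and 89.3 to 94.8% in Ag+Costim. edgeR's diffSpliceDGE called none of the 6 genes for a change in transcript usage (BH under 0.05 and a change of mean share over 10 percentage points), where it called 0.297% of 10441 genes, and 0 of 6 had an unadjusted Simes p under 0.05, against 6.42% of all genes. The largest change of mean share in a member was 4.37 percentage points. limma's diffSplice also called 0 of the 6.

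For 11 isoform shares the groups were compared by exact permutation of the library labels, two-sided, where 5 against 5 libraries cannot give a p below 0.0079. These p-values are not adjusted. Stat3 beta took 3.68, 2.21, 17.2, 4.30 and 2.33% of coding Stat3 counts in Ag replicates 1 to 5 and 1.76, 1.96, 2.06, 1.96 and 2.70% in Ag+Costim. Only Ag replicate 3, the library with the lowest total, was above 5%. Means were 5.95 ± 6.37% and 2.09 ± 0.359% (SD, n = 5), exact permutation p = 0.0476. Without Ag replicate 3 the difference went from -3.86 to -1.04 percentage points and the exact permutation p to 0.0952. Stat3-202 is also the transcript with the longest 3' end, and the transcript Stat3-203 moved in the opposite direction, from 90.4 ± 7.21% to 94.8 ± 0.273% of the gene (exact permutation p = 0.0397), a difference of 4.37 percentage points that was 1.17 without Ag replicate 3 (exact permutation p = 0.0794).

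By PSI, the share of Stat3 using the beta acceptor was the same size in both groups, 17.4% in Ag and 17.8% in Ag+Costim. The 3 donor bases were left out in 21.6% and 25.3% by PSI, and in 2.77 ± 0.810% and 2.78 ± 0.241% by counts (exact permutation p = 0.992). Among the tandem 3' ends of Stat3, PSI was higher at the shorter and lower at the longer end in Ag+Costim. The end at 100888236 on chromosome 11, the end of Stat3-201, went from 0.217 to 0.287, and the end at 100886810, that of Stat3-203, from 0.779 to 0.712.

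For the tyrosine exon of Stat5a the 2 readings were far apart. By counts, Stat5a-203, without the tyrosine exon, took 78.8, 81.4, 75.5, 75.3 and 81.5% of the transcripts that span this exon in Ag, and 77.6, 82.1, 82.3, 78.7 and 79.8% in Ag+Costim. The groups overlapped, with means of 78.5 ± 3.02% and 80.1 ± 2.06% (exact permutation p = 0.333). By PSI the exon was absent from 7.04% in Ag and 14.1% in Ag+Costim, a difference of 7.04 percentage points with no replicate check. In Stat5b the exon of the same length and place was absent from 0.117% and 0.059%. Which reading describes the RNA was not tested. Stat5a-203 also differs from Stat5a-201 in its first exons, which the counts use and the PSI of this exon does not. In addition, Stat5a-203 ends at 100885168 on chromosome 11 and Stat5a-201 at 100885169. The PSI of the first of these ends was 0.784 in both groups, and that of the second 0.216 in Ag and 0.215 in Ag+Costim.

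**Figure D4:**
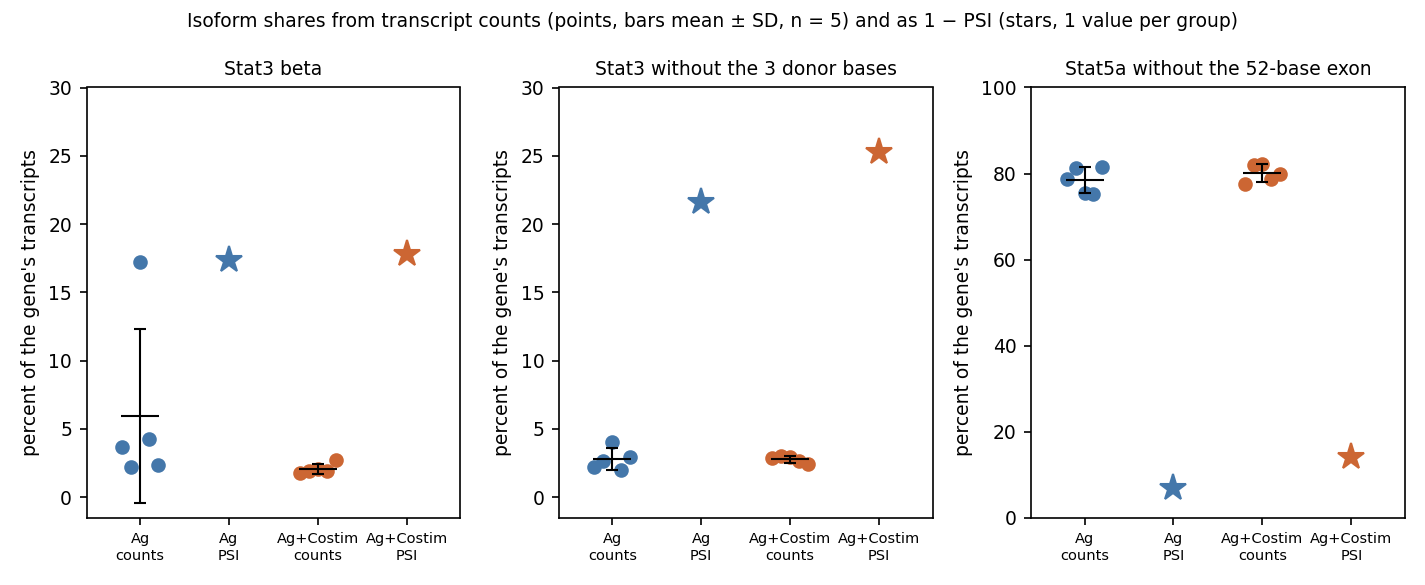
Percent of Stat3 beta, of Stat3 without the 3 donor bases and of Stat5a without the 52-base exon (vertical axes), from transcript counts (points, 1 per library, bars mean ± SD, n = 5) and from PSI (stars, 1 value per group). Counts and PSI differ by more than the spread between libraries for the donor bases and for the Stat5a exon, with 78.5% against 7.04% in Ag for the latter. They also do for Stat3 beta in Ag+Costim, with 2.09 ± 0.359% by counts against 17.8% by PSI. For Stat3 beta in Ag, the PSI value of 17.4% lies just above the highest library, at 17.2%.

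In all, the 6 genes had 139 splicing events with a PSI. Of their 121 core exons, 115 had a PSI of at least 0.98 in both groups. A PSI difference over 0.05 was found in 5 events, beside 11.9% of all 138940 events, 6.93% of events in genes at 10 CPM or more and 2.07% of core exons in such genes. These 5 were the Stat5a exon, the Stat3 ends at 100888236 and 100886810, and both ends of the last exon of Stat4. Since the 2 ends named for a gene are complementary, they stand for 3 differences, each with 1 value per group. The Stat4 ends lie 5 bases apart, within the part of Stat4 that the locus Gm28177 overlaps on the same strand. The part of that locus in their PSI was not tested. The shorter, at 52107184 on chromosome 1, went from 0.0917 to 0.258 and the longer, at 52107189, from 0.909 to 0.742. By counts, Stat4-202, the transcript with the longer end, held 3.31 ± 3.19% of coding Stat4 in Ag and 2.69 ± 1.26% in Ag+Costim, and also has other first exons.

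The lowest PSI among the other core exons belonged to the Stat4 exon that holds the start codon (chr1:52011783-52011911), 0.897 in Ag and 0.874 in Ag+Costim. Another Stat4 exon (chr1:52065315-52065413) was at 0.972 and 0.957. Stat2, Stat5b and Stat6 had no event past 0.05. The alternative first exon of Stat5b-202 was used in 0.0159 and 0.00146 by PSI and held 4.84 ± 4.43% and 1.74 ± 1.86% of coding Stat5b by counts. Ag replicates 1 and 4 held 7.24 and 11.3% of it, the other Ag libraries 0.369 to 3.11% and Ag+Costim 4.53% at most. For Stat5b-201 the difference between groups was 3.15 percentage points (exact permutation p = 0.19), and 0.20 without Ag libraries 1 and 4.

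The share of transcripts with a retained intron depended on whether counts or coverage were read. By counts they held 3.03 ± 1.32% of Stat2 in Ag and 1.78 ± 0.621% in Ag+Costim, 1.41 ± 0.535% and 0.816 ± 0.170% of Stat4, 0.962 ± 0.566% and 0.384 ± 0.134% of Stat3, and 0.191 ± 0.133% and 0.0957 ± 0.0236% of Stat6. Ranges of the groups overlapped in all 4 genes. By coverage they held 16.0, 18.2, 20.6, 12.6 and 6.21% of Stat2 in Ag and 5.23 to 10.6% in Ag+Costim, and up to 7.39% of Stat3, 5.78% of Stat4 and 1.85% of Stat6 in a library. The noncoding transcripts of Stat5a held 4.61 ± 4.17% and 1.34 ± 0.666% by counts, again with overlap.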

How the data were processed

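Counts per gene and transcript of 5 Ag and 5 Ag+Costim libraries were used (SMART-Seq v4, Nextera XT, paired reads). Per the labels, the authors aligned reads to mm10 with HISAT2 2.1.0, sorted them with SAMtools 1.9 and derived the deposited values, estimated counts (expected counts), with StringTie 2.1.0. These come from coverage and are rounded, so their totals (59.6 to 639.1 M) are not reads, and they had not been normalized. The deposited PSI, made by the authors with Whippet, is a fraction with 1 value per group and unknown depth. The authors' PSI difference, probability and entropy in the same table were not used. The facility's fragment sizes (other unit) were not tested.

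The 6 genes and the lists were chosen with earlier results of these data known, and all 6 genes passed the filter on low counts. The 26345 of 81881 gene entries that matched no GENCODE M21 gene were left out (0.0458 to 0.3078% of counts per library). Genes were tested with edgeR 4.0.16 in R 4.3.3 (filterByExpr, TMM, quasi-likelihood, robust, BH over all genes, threshold 0.05), transcript usage with diffSpliceDGE and shares with SciPy's exact permutation test. Alternatives were DESeq2 1.42.0, limma 3.58.1, 3 other scalings, no filter, another transcript filter, coverage in place of counts, other PSI thresholds, a replicate block and leaving out libraries. Scripts were tested on simulated data. PSI columns were assigned to groups by the letters in the sample titles. In 163 of 231 core exons with a PSI difference over 0.1 in genes at 10 CPM or more, transcript counts moved the same way. Named genes are the members, the Janus kinases, from each other list the 4 with the largest fold change at 10 CPM or more without overlap, filled by lowest p, and the 3 most alike each member, of which 1 is not reported here. The labels do not name the animals, so p-values measure the spread between these samples.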

Additional observations from a re-analysis of the deposited data

Results flagged for a closer look

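In 62 groups of 5 values, 6 had 1 library farther from the others than Dixon's 95% limit of 0.71 of the group's range, where chance would give about 3.1. Of these, 4 were in Ag replicate 3. It held 17.2% Stat3 beta among coding transcripts, next to 4.30% in the nearest Ag library. For the same reads, Stat3-202 held 17.0% of the gene (nearest 4.25%) and Stat3-203 77.6% (nearest 92.5%), so these 3 values are 1 observation. The same library held 8.86% Stat4-202 among coding Stat4 transcripts, next to 2.75%. The other 2 were Stat3 in Ag replicate 4, at 288 CPM next to 221, and the share of Stat2 in the summed counts of the 6 genes in Ag+Costim replicate 4, at 2.25% next to 2.97%. Ag replicate 3 is the library with the lowest total and the most erythroid RNA, and their part in these values was not tested.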

How the results depend on the processing

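Of 335 values under an alternative, 277 kept their direction and their side of the threshold. No member was called by edgeR under any scaling, filter, block or left-out library. With DESeq2, 8064 genes (931 higher) and 1 member were called, Stat5a (0.47). With limma voom and library weights, 12333 genes (6151 higher) and 4 members were called, Stat2 (-0.58), Stat4 (0.48), Stat5a (0.72) and Stat5b (0.42). The sign of Stat3 turned with total counts (-0.07) and upper quartile scaling (-0.02), and that of Stat2 without a filter (0.09). Leaving out 1 library gave log2 fold changes of -0.32 to 0.03 for Stat2 (0.03 without Ag replicate 4), 0.20 to 0.34 for Stat3, 0.24 to 0.42 for Stat4, 0.53 to 0.72 for Stat5a, 0.42 to 0.56 for Stat5b and 0.31 to 0.42 for Stat6, with 0 genes called over all genes and adjusted p of 0.0703 to 0.448 for Stat5a. Chosen after seeing the data, leaving out Ag libraries 1 and 4 turned Stat2 to 0.32, and leaving out 3 and 5 gave 88 genes called and no member.

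Genes called for transcript usage numbered 31, with 145 in limma's diffSplice, 19 with at least 50 counts in 5 libraries and 33 to 93 when 1 library was left out (64, 84, 57, 83 and 93 without Ag replicates 1 to 5, and 47 without Ag+Costim replicate 1), with 0 members throughout. The difference of Stat3 beta ran from -4.79 to -1.04 percentage points when 1 library was left out (exact p 0.0159 to 0.0952), of Stat3-202 from -4.71 to -1.02 and of Stat3-203 from 1.17 to 5.47. Without Ag libraries 1 and 4 these were -5.17, -5.09 and 5.85, without 3 and 5 they were -1.3, -1.27 and 1.42, and none passed the threshold. By coverage Stat3-203 moved by 5.37 (exact permutation p = 0.0952). Stat4-201 ran from -0.23, without Ag replicate 3, to 1.96, and Stat2-201, 1.33 as reported, from 1.02 to 1.81 (the last without Ag replicate 5, exact permutation p = 0.0159), with 5.89 by coverage (exact permutation p = 0.0635) and 1.67 without Ag libraries 3 and 5 (exact permutation p = 0.0357). Over 0.1, 2 of the 139 PSI events remained, beside 5.87% of all events, and over 0.02 there were 7, beside 25.9%. The cause of these changes was not tested.

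No clear sign was found that the replicate numbers pair the samples (correlations of same-numbered deviations from -0.29 to 0.26, 1 of 5 samples closest to its own number). With so few correlations this check cannot exclude pairing. With the replicate block 18 of 21 values kept direction and side. The exceptions were Stat3 beta (-3.86), Stat3-202 (-3.79) and Stat3-203 (4.37), each at an exact sign-flip p of 0.188, where 5 pairs cannot go below 0.0625.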
